A study of Mus musculus with 8 samples.

Results

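Transcripts of collagens, laminins and other basement membrane genes were examined in RNA-seq data from layer IV of mouse visual cortex. Members were taken by symbol: every collagen chain (Col, a number, a, a number) and laminin chain (Lam, then a, b or c and a number), together with Sparc, Serpinh1, Nid1, Nid2, Hspg2, Fn1, P4ha1, P4ha2, Plod1, Plod2 and Lox. The files named 65 such genes among 34980 genes in all, and 61 of the 65 had a total of at least 30 counts over the 6 libraries. The other 4 members, Col2a1, Col4a4, Col10a1 and Lox, had 9 to 19 counts each and were not analysed further.

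Layer IV was cut by hand from the cortex of B6D2 mice, and total RNA was sequenced. The groups were wild-type mice (Otx2 +/+) at postnatal day 30 (P30), wild-type mice at P100, and mice at P30 that were heterozygous for the homeobox gene Otx2. The heterozygous genotype is Otx2 +/- in the sample labels and Otx2 +/GFP in the text on the series, and neither limits the allele to a cell type or promoter. Each group had 2 libraries, with 4 mice pooled per condition, and the 2 heterozygous P100 samples of the series were not analysed here. The sources do not say whether the duplicates were separate pools, so the p-values measure only the spread between these libraries, which may be technical.

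The libraries held 30651483 to 42374860 counts over all transcripts. The 1 transcript counted per gene held 11016841 to 15308781 of them, of which the members took 0.0669% to 0.0863%. Rorb, a transcription factor gene typical of layer IV neurons, was read at 497 to 581 CPM (counts scaled to a common library size by TMM) in all 6 libraries. Duplicates were not repeats of a library, since their chi-square was 4.17 to 5.40 per degree of freedom. The second heterozygous library stood apart. Its 12 choroid plexus markers summed to 635 CPM, against 2.83 to 4.75 CPM in the other 5 libraries, where 4 to 6 of the 12 markers were at 0. Xist, transcribed from the inactive X chromosome, reached 785 and 924 CPM with the heterozygous genotype against 0.264 to 0.639 CPM with the wild-type one, and the Y-linked Ddx3y stood at 2.48 and 1.04 CPM against 146 to 156 CPM. Sex-linked transcripts therefore differed together with the genotype, and the 2 cannot be told apart here.

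Basement membranes are thin sheets of matrix that line endothelium, wrap pericytes and vascular smooth muscle, and separate brain vessels and the pial surface from astrocyte endfeet. Laminins, each a trimer of an alpha, a beta and a gamma chain, form one network in them and collagen IV forms another. Nidogens and the heparan sulfate proteoglycan perlecan link these networks. Fibrillar collagens instead assemble into fibrils, which in the brain are found mainly in the meninges and around larger vessels. Collagen chains are hydroxylated and folded in the endoplasmic reticulum, with the help of prolyl and lysyl hydroxylases and the collagen chaperone Serpinh1 (HSP47), before secretion.

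The 61 members fell into 12 genes of the vascular basement membrane, 10 other basement membrane chains, 10 fibrillar collagens, 9 fibril-associated collagens, 9 beaded-filament and network collagens, 4 transmembrane collagens and 7 genes of collagen synthesis and other matrix proteins. A filter on low counts, which required about 0.700 CPM in 2 libraries, left 56 of them for testing. Col6a3, Col6a6, Col8a2, Col9a1 and Col13a1 did not pass. Of those tested, 8 (Col1a1, Col3a1, Col4a3, Col4a6, Col5a3, Col6a4, Col14a1 and Col17a1) were below that level on average in at least 1 group. Among them, 3 (Col1a1, Col14a1 and Col17a1) were above it on average in only 1 group, so that a gene low in all groups was less likely to be tested. Col6a4 averaged 0.439 CPM at wild-type P30 and passed through the other groups, where it was higher. Counts over the tested members below describe them and carry no weight of their own for that reason.

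Levels between genes were compared as CPM per kilobase of the counted transcript, averaged over the 6 libraries. Sparc, a matricellular glycoprotein that binds collagen, had the highest level of all members at 43.8 CPM per kb. P4ha1, a catalytic subunit of prolyl 4-hydroxylase, followed at 21.4 CPM per kb. Among the vascular basement membrane genes, the laminin chain genes Lama4 (8.88 CPM per kb) and Lamc1 (6.21 CPM per kb) and the collagen IV genes Col4a2 (6.04 CPM per kb) and Col4a1 (5.22 CPM per kb) were the most abundant, while perlecan (Hspg2) was at 0.245 CPM per kb. The fibrillar collagens were lower. Col11a1 (1.85 CPM per kb), Col11a2 (1.47 CPM per kb) and Col5a1 (1.23 CPM per kb) led that class, and the collagen I and III genes that dominate in most connective tissue were at 0.523 (Col1a2), 0.109 (Col1a1) and 0.210 (Col3a1) CPM per kb. Summed per kb, the vascular basement membrane genes were 4.20 to 4.77 times the fibrillar collagens in every library. Col19a1 (6.33 CPM per kb), a fibril-associated collagen made by some cortical neurons, and Col25a1 (6.48 CPM per kb), a transmembrane collagen of neurons, stood at the height of the collagen IV genes. Of the basement membrane chains placed outside the vascular list here, the laminin alpha chain gene Lama2 was at 1.56 CPM per kb. Each gene was read through 1 transcript, and the counted transcripts of Col19a1 and P4ha2 are annotated as non-coding isoforms.

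**Figure D1:**
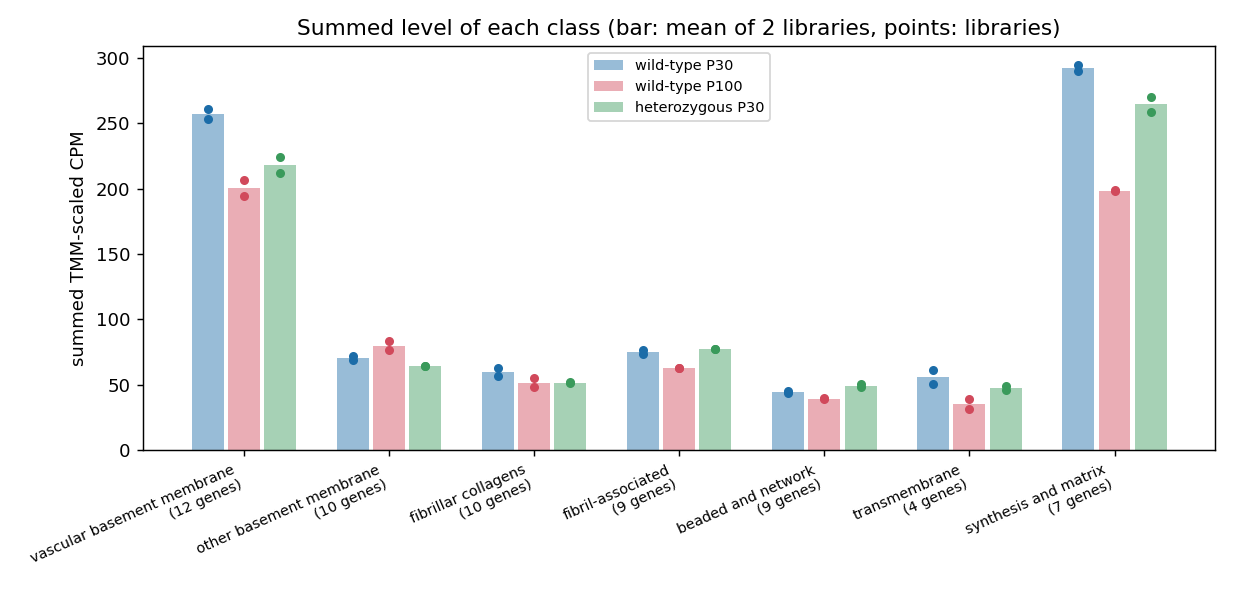
Summed level of each class of members, in CPM (vertical axis, starting at 0), with 1 point per library and a bar at the mean of the 2 libraries of a group. In wild-type mice the vascular basement membrane sum was 254 to 261 CPM at P30 and 194 to 207 CPM at P100, while the fibrillar sums of all groups lay between 48.3 and 62.8 CPM.

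The age comparison set wild-type P100 against wild-type P30, from the weeks when ocular dominance is plastic to adulthood. At P100, 5 of the 7 synthesis and matrix genes and 4 of the 12 vascular basement membrane genes were lower. Of the 56 tested members, 10 were lower and 2 higher (edgeR quasi-likelihood test, Benjamini-Hochberg adjusted p under 0.05). Among all 15841 genes tested, 4.54% were lower and 3% higher. The lower members were Serpinh1, Sparc, P4ha1, Plod1 and Fn1 of the synthesis and matrix genes, Lamc1, Nid1, Nid2 and Col4a1 of the vascular basement membrane, and the transmembrane collagen Col25a1. The median log2 difference of the tested members was -0.31, with 41 below 0, against a median of 0.00 over all genes. The libraries of the 2 ages did not overlap in 30 members that were lower and 6 that were higher. Over all genes, 25.7% were lower and 25.5% higher without overlap.

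Serpinh1 (ENSMUSG00000070436, chr7:99345376-99353239, minus strand, mm10) encodes the chaperone that binds procollagen in the endoplasmic reticulum. Its level was 19.7 and 17.1 CPM in the younger wild-type mice and 7.96 and 9.68 CPM in the older ones. Both P100 libraries lay below both P30 libraries, by a log2 difference of -1.06 ± 0.15 (SE), 2.09-fold lower, with an edgeR adjusted p of 0.0012. Its promoter and that of Nid1 are shown here because these are, with the less abundant Nid2, the called members that fell most. The bases are RefSeq's on GRCm38.p6 (the assembly of mm10), 5′ to 3′ on the gene's strand and ending before the first annotated exon base. Capitals mark GGGCGG, the core of a GC box, and, in Nid1, ATTGG, which is CCAAT on the other strand.
Serpinh1, chr7:99353240-99353489, minus strand: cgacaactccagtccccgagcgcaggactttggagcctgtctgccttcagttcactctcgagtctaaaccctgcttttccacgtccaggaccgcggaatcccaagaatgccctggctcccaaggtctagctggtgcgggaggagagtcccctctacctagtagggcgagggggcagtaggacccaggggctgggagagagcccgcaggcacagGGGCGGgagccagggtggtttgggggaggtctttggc
Nid1, chr13:13437352-13437550, plus strand: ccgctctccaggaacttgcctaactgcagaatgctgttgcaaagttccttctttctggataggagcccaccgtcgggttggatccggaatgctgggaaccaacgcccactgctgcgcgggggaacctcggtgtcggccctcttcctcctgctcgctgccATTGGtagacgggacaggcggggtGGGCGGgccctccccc

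The Serpinh1 window of 250 bases was 63.6% G and C and held GGGCGG at 37 bases before the start. In the Nid1 window of 199 bases, CCAAT lay 91 and GGGCGG 67 bases before the RefSeq start. That start lies 52 bases past the last base shown, because the window stops at the first annotated exon base. Such motifs were common. Among 48 promoter windows of 250 bases that matched 44 of the 61 members, GGGCGG was in 29 (60.4%) against 32.7% of 32851 windows of all genes, on either strand. CCAAT was in 31.3% against 33.8%, TATAAA in 10.4% against 12.4%, TGANTCA (the AP-1 core) in 2.08% against 6.75% and GAANNTTC in 4.17% against 6.69%. The median G and C content was 60.4% in the member windows and 52.4% in all windows. Such a match describes the letters and not a bound site.

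Sparc (ENSMUSG00000018593, chr11:55394500-55423183) was at 118 and 113 CPM at wild-type P30 and at 60.9 and 72.2 CPM at P100. The P100 libraries were both below those of P30, with a log2 difference of -0.80 ± 0.09 (SE; edgeR adjusted p = 1.8e-04). Fn1, the fibronectin gene, fell from 31.7 and 30.8 CPM to 22.9 and 21.0 CPM, a log2 difference of -0.51 ± 0.11 (SE; edgeR adjusted p = 0.012). Of the enzymes that modify collagen chains, P4ha1 and Plod1 were lower. P4ha1 was at 94.7 and 105 CPM at P30 and at 83.6 and 71.7 CPM at P100 (log2 difference -0.36 ± 0.09 SE, edgeR adjusted p = 0.027). Plod1, a lysyl hydroxylase, was at 12.6 and 12.7 CPM and then at 7.09 and 8.98 CPM (log2 difference -0.66 ± 0.19 SE, edgeR adjusted p = 0.048). The related Plod2 stood on the other side, at 4.75 and 5.91 CPM at P30 and 7.67 and 7.57 CPM at P100, without passing the threshold (edgeR adjusted p = 0.12). P4ha2 did not pass either (log2 difference -0.21 ± 0.17 SE).

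Of the vascular basement membrane genes, Nid1 and Nid2, which encode the nidogens, differed most. Nid1 (ENSMUSG00000005397, chr13:13437551-13512269) was at 8.76 and 11.3 CPM at P30 and 4.42 and 4.66 CPM at P100, 2.22-fold lower (log2 difference -1.15 ± 0.19 SE, edgeR adjusted p = 0.0027). Nid2 was at 3.29 and 2.57 CPM and then at 1.23 and 0.968 CPM (log2 difference -1.38 ± 0.36 SE, edgeR adjusted p = 0.034). The P100 libraries were the lower pair in both genes, and 8.96% of the exon bases counted for Nid2 overlap a gene on the opposite strand.

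Lamc1, which encodes the gamma chain shared by the laminins of vessels (ENSMUSG00000026478, chr1:153218922-153332786), was at 58.2 and 64.0 CPM at P30 and 39.6 and 36.8 CPM at P100. It was 1.60-fold lower at P100 (log2 difference -0.68 ± 0.10 SE, edgeR adjusted p = 0.0011). The alpha and beta chains that join it did not pass the threshold. Among the alpha chains, Lama5, found in mature endothelial basement membrane, was at 6.03 and 5.42 CPM against 3.33 and 3.52 CPM (edgeR adjusted p = 0.055). Lama4, the other endothelial alpha chain, overlapped between ages, at 65.1 and 44.8 CPM against 47.5 and 58.3 CPM (log2 difference -0.05 ± 0.15 SE). The beta chains had log2 differences of -0.41 ± 0.17 (SE, Lamb1) and -0.17 ± 0.14 (SE, Lamb2).

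Col4a1 and Col4a2 encode the chains of the main collagen IV trimer, which joins a pair of Col4a1 chains with a Col4a2 chain. They lie head to head on chromosome 8, with starts at 11312826 on the minus strand and 11312805 on the plus strand, so that their first exons overlap by 22 bases. Col4a1 was at 39.9 and 44.8 CPM at P30 and 30.0 and 27.0 CPM at P100, below it in both libraries (log2 difference -0.57 ± 0.11 SE, edgeR adjusted p = 0.0062). Col4a2 was at 35.3 and 44.4 CPM and then at 37.9 and 39.4 CPM, inside the range of P30 (log2 difference -0.05 ± 0.12 SE, edgeR adjusted p = 0.84). The ratio of Col4a1 to Col4a2 CPM within a library was 1.13 and 1.01 in wild-type mice at P30, 0.793 and 0.685 in those at P100 and 0.933 and 0.788 in heterozygous mice at P30. The P100 ratios were both below those of P30, but the two-sided exact permutation test on 2 against 2 libraries gave p = 0.333, the smallest it can give.

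**Figure D2:**
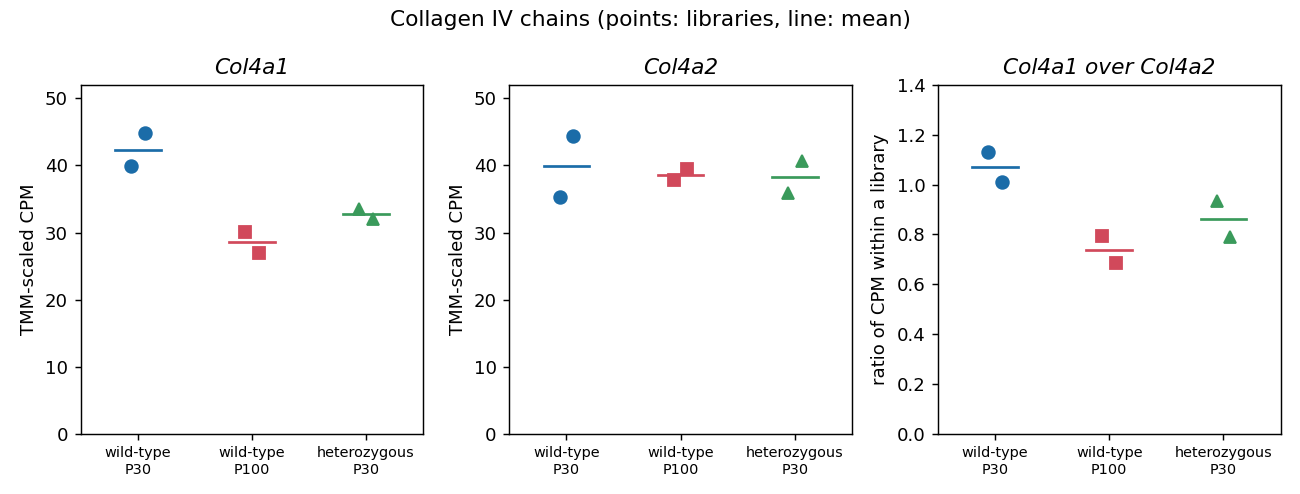
Levels of Col4a1 and Col4a2 in TMM-scaled CPM and their ratio within each library (vertical axes, starting at 0), with 1 point per library and a line at the group mean. Col4a1 separated the wild-type ages, at 39.9 and 44.8 against 30.0 and 27.0 CPM, while the Col4a2 values of all groups overlapped between 35.3 and 44.4 CPM.

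The other vascular members did not pass the threshold. Hspg2, the perlecan gene, was at 5.48 and 3.61 CPM at P30 and 2.17 and 2.46 CPM at P100, lower in both libraries (log2 difference -0.95 ± 0.29 SE, edgeR adjusted p = 0.058). Col18a1, whose cleavage gives endostatin, was at 2.10 and 1.11 CPM against 0.724 and 0.792 CPM (log2 difference -1.04 ± 0.47 SE). Col15a1 was the 1 vascular member of 12 with a log2 difference above 0, at 0.18 ± 0.20 (SE). Between them, the 12 genes had a median log2 difference of -0.62.

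Col25a1, which is shed from neurons and binds amyloid, was at 59.3 and 48.0 CPM at P30 and 36.7 and 29.6 CPM at P100, without overlap (log2 difference -0.69 ± 0.12 SE, edgeR adjusted p = 0.0049). A collagen of another kind was higher at P100. Col6a4, a collagen VI chain, was read with only 2 and 10 counts at P30 (0.183 and 0.695 CPM) against 39 and 20 counts at P100 (2.82 and 1.76 CPM), 4.87-fold higher (log2 difference 2.28 ± 0.49 SE, edgeR adjusted p = 0.013). Leaving out 1 library at a time gave log2 differences of 1.73 to 3.60 for Col6a4, and its call was lost without the first wild-type P30 library (edgeR adjusted p = 0.073) or the first wild-type P100 library (0.13). Its partner chains Col6a1 and Col6a2 had log2 differences of -0.40 ± 0.24 (SE) and 0.08 ± 0.25 (SE) and were not called.

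None of the 10 tested fibrillar collagens passed the threshold for age, though 8 had a log2 difference below 0 and the class median was -0.75. At an unadjusted p under 0.05 edgeR counted 4 of the 10, beside 3595 of all 15841 genes tested. limma-voom called none of the 10 at its adjusted p, and DESeq2 gave an adjusted p for 7 of them and called none of those. Col1a2 was at 3.20 and 3.89 CPM at P30 and 1.30 and 2.29 CPM at P100 (log2 difference -1.02 ± 0.35 SE, edgeR adjusted p = 0.10), and Col3a1 at 1.46 and 1.18 CPM against 0.290 and 0.792 CPM (log2 difference -1.32 ± 0.50 SE). Col1a1 (-1.10 ± 0.53), Col5a2 (-0.85 ± 0.35), Col5a3 (-0.84 ± 0.52) and Col24a1 (-0.66 ± 0.20) also had log2 differences below 0, the last with an edgeR adjusted p of 0.057. Col11a1 (-0.10 ± 0.14), Col11a2 (-0.12 ± 0.18), Col27a1 (0.07 ± 0.26) and Col5a1 (0.36 ± 0.21) lay near or above 0.

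The other classes are described by their medians. The tested fibril-associated collagens had a median log2 difference of -0.26, with Col19a1 at -0.25 ± 0.12 (SE), Col9a3 at -0.64 ± 0.20 (SE, edgeR adjusted p = 0.069) and Col9a2 at -0.26 ± 0.26 (SE). The beaded and network collagens had a median of -0.06, with Col26a1 at -0.20 ± 0.20 (SE) and Col8a1, a vascular short-chain collagen, at -0.37 ± 0.16 (SE). Outside the vascular list, the basement membrane chains Lama2 (0.03 ± 0.14) and Lama3 (-0.10 ± 0.16) kept log2 differences within their errors of 0, and the other basement membrane class had a median of -0.03. Its lowest log2 difference was that of Col4a3 (-0.67 ± 0.59 SE), a chain of the kidney collagen IV network. The fibril-associated collagens ranged from Col14a1 (-0.76 ± 0.48 SE) to Col22a1 (0.19 ± 0.50 SE), and the transmembrane Col17a1 and Col23a1 had -0.72 ± 0.61 (SE) and 0.16 ± 0.36 (SE).

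Summed over each list, markers of vessel cells were lower at P100 as well, though single markers went both ways. The 14 endothelial markers summed to 426 and 419 CPM at wild-type P30 and 351 and 375 CPM at P100, with Cldn5 and Kdr past the threshold. The 12 mural cell markers summed to 272 and 276 CPM against 222 and 211 CPM, with Rgs5 and Cspg4 past it. The 16 fibroblast and meningeal markers, 12 of them tested, summed to 69.3 and 56.4 CPM against 36.9 and 37.1 CPM, with Igfbp2 and Igf2 past it. Of the 14 endothelial markers, 11 had a log2 difference below 0 and 3 above. The 12 mural markers split 10 and 2 in the same way, and the 12 tested fibroblast and meningeal markers 7 and 5. Among all genes tested, 4.54% were lower with age. Of 15 oligodendrocyte markers, 13 were lower, with sums of 3632 and 3495 CPM against 2048 and 1733 CPM, and Cspg4 is also a marker of their precursors. Of 10 microglia markers, 2 were lower, with sums of 349 and 335 CPM against 285 and 272 CPM. Of 10 astrocyte markers, 3 were lower, with sums of 6025 and 6301 CPM against 5771 and 5549 CPM. Of 4 tested blood markers, 1 was lower, with sums of 22.2 and 16.0 CPM against 9.63 and 10.9 CPM. In all of these 3 lists the sums at P100 lay below those at P30. The part of these cell types in the members' differences was not tested, and in tissue RNA fewer cells of a type and less RNA per cell cannot be told apart.

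Leaving out the second wild-type P100 library left 4 members lower with age in place of 10, and Col4a1, Col25a1 and Fn1 lost their call without that library only (edgeR adjusted p 0.068, 0.068 and 0.097). Lamc1, Nid1, Serpinh1 and Sparc were called for age in each of 17 alternative settings, whereas Nid2, Plod1, P4ha1 and Col6a4 were not.

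**Figure D3:**
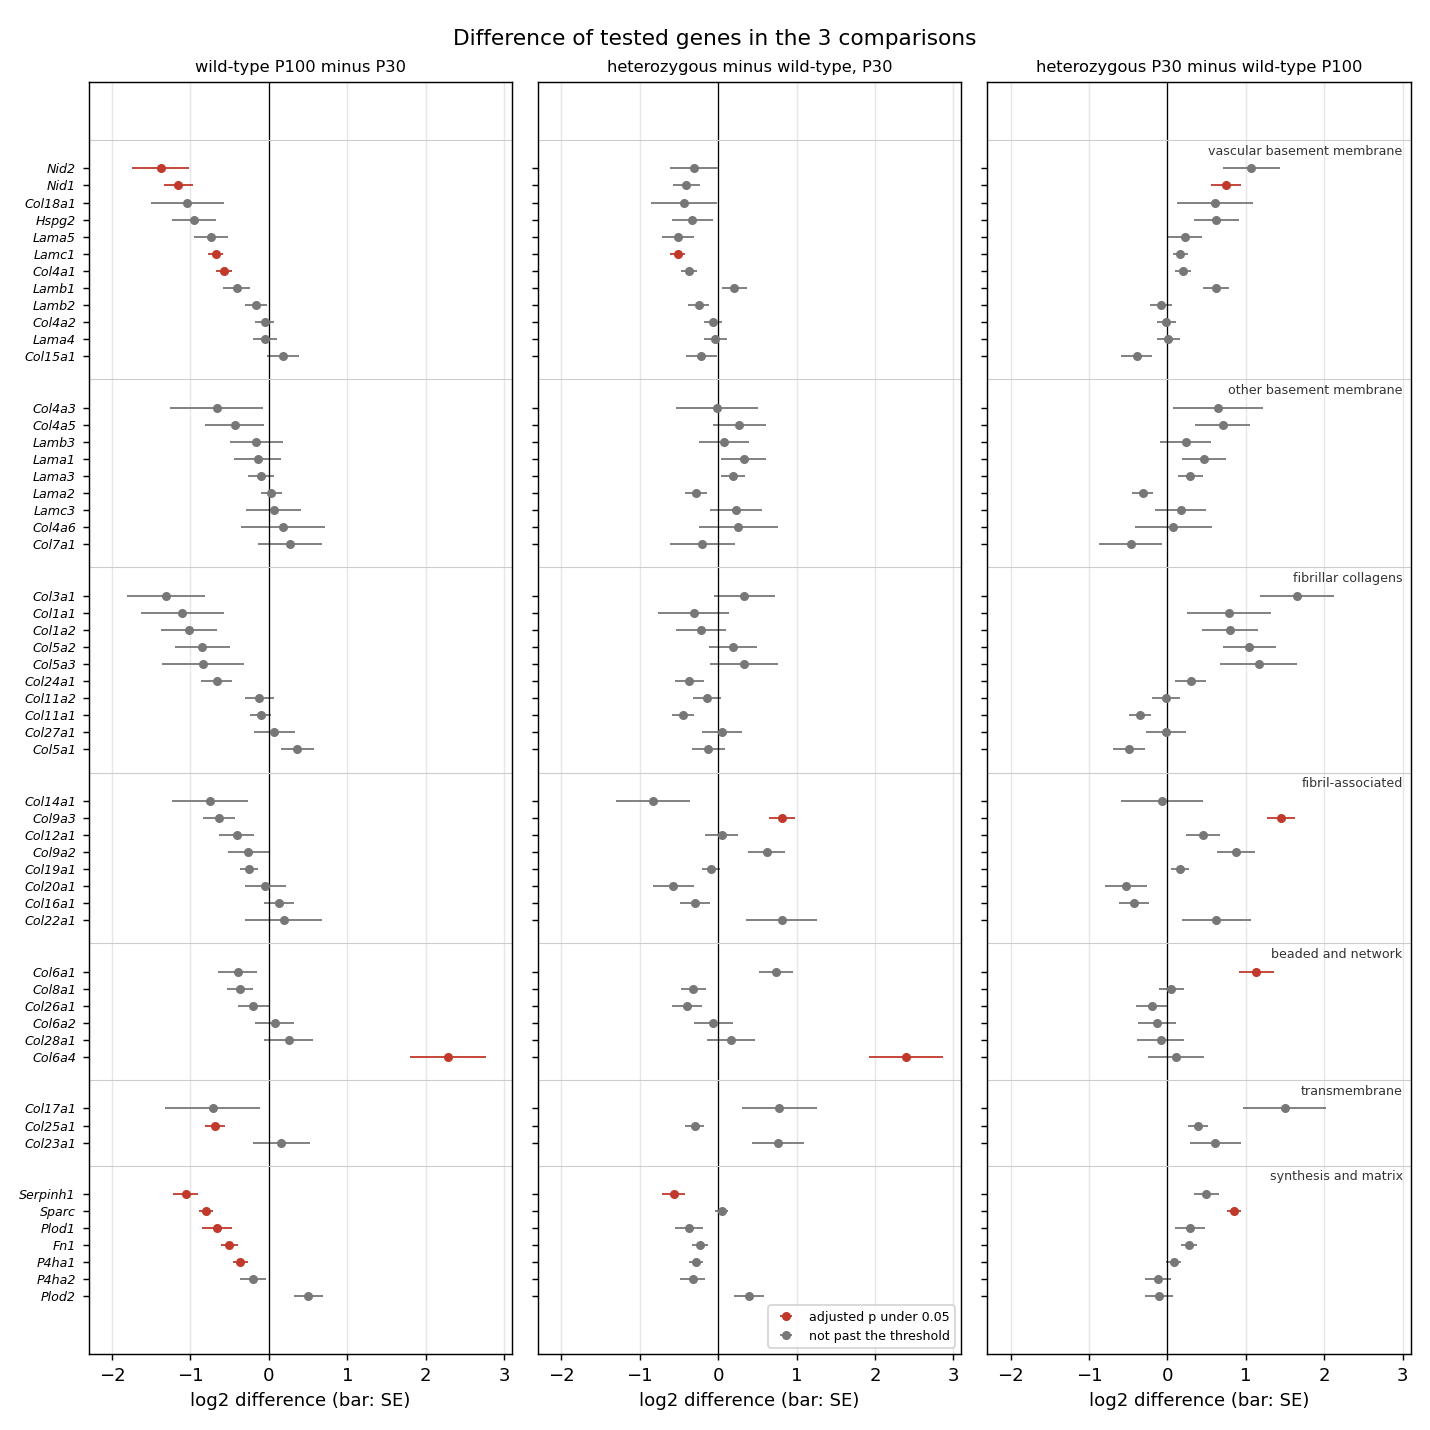
Log2 difference of tested members in the 3 comparisons (horizontal axes), ordered by class and by the age difference, with bars of 1 SE and members past the adjusted p threshold in red. For age, 10 members lie below 0 in red, against 2 below and 2 above for genotype.

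The genotype comparison set heterozygous against wild-type mice at P30, and shares its wild-type libraries with the age comparison. Here Lamc1 and Serpinh1 were lower and Col9a3 and Col6a4 higher, so that 2 of 56 tested members were called in each direction. Over all genes, 2.32% were lower and 0.903% higher. The median log2 difference of the tested members was -0.13, against 0.00 over all genes, and 22 were lower and 12 higher without overlap between the groups, beside 24.4% and 24.5% of all genes.

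Lamc1 was at 41.5 and 44.1 CPM in heterozygous mice, both below the 58.2 and 64.0 CPM of wild-type mice of the same age (log2 difference -0.51 ± 0.09 SE, edgeR adjusted p = 0.0094). Serpinh1 was at 11.5 and 13.2 CPM against 19.7 and 17.1 CPM, also without overlap (log2 difference -0.57 ± 0.14 SE, edgeR adjusted p = 0.048). The Serpinh1 call stood close to the threshold and was lost in 12 of 17 alternatives. Lamc1 lost its call without the second wild-type P30 library or the first heterozygous library, with edgeR adjusted p up to 0.12.

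Col9a3, a chain of the collagen IX that coats fibrils in cartilage, was at 10.5 and 11.4 CPM in heterozygous mice against 6.85 and 5.70 CPM (log2 difference 0.81 ± 0.17 SE, edgeR adjusted p = 0.019). Its partner chain Col9a2 was at 4.83 and 5.79 CPM against 3.20 and 3.68 CPM and did not pass (log2 difference 0.62 ± 0.23 SE, edgeR adjusted p = 0.18). The heterozygous libraries were the higher pair for both chains. Some 7.68% of the exon bases counted for Col9a3 overlap Tcfl5 on the opposite strand. Col6a4 was at 2.35 and 2.67 CPM, from 35 and 41 counts, against 0.183 and 0.695 CPM, 5.26-fold higher (log2 difference 2.40 ± 0.48 SE, edgeR adjusted p = 0.014). With 1 library left out the Col6a4 log2 difference ran from 1.84 to 3.71, and the call was lost without the first wild-type P30 library (edgeR adjusted p = 0.070).

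Without the second heterozygous library, which held the choroid plexus transcripts, Lamc1 (log2 difference -0.56, edgeR adjusted p = 0.032) and Col6a4 (2.30, adjusted p = 0.045) were still called. Serpinh1 (-0.67, adjusted p = 0.082) and Col9a3 (0.75, adjusted p = 0.11) kept their sign but not their call. Col9a3 also lost its call without the second wild-type P30 library (edgeR adjusted p = 0.16) or the first heterozygous library (0.080). Col8a2, a network collagen that did not pass the filter, was at 2.80 CPM in that library and at 0.0880 to 0.536 CPM in the other 5.

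The other members did not pass the threshold for genotype. Sparc was at 115 and 124 CPM in heterozygous mice, overlapping the 118 and 113 CPM of wild-type mice (log2 difference 0.05 ± 0.09 SE, edgeR adjusted p = 0.84). Col4a1 was at 33.5 and 32.0 CPM, below both wild-type libraries, without passing (log2 difference -0.37 ± 0.10 SE, edgeR adjusted p = 0.071). Col4a2, at 35.9 and 40.6 CPM, had a log2 difference of -0.06 ± 0.12 (SE). Nid1, at 7.44 and 7.75 CPM, had a log2 difference of -0.41 ± 0.17 (SE, edgeR adjusted p = 0.23). Of the 12 vascular members, 11 had a log2 difference below 0, with a class median of -0.32 and Lamb1 above 0 at 0.21 ± 0.16 (SE). The fibrillar median was -0.13, with Col11a1 at -0.45 ± 0.14 (SE, edgeR adjusted p = 0.099), and none of the 10 passed the threshold in edgeR or limma-voom. Of the 10, 1 had an unadjusted edgeR p under 0.05, beside 2745 of all 15841 genes tested. DESeq2 gave an adjusted p for 4 of the 10 and called none of those.

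The X-linked collagen IV genes Col4a5, at 1.81 and 2.60 CPM against 2.19 and 1.53 CPM, and Col4a6, at 0.670 and 0.846 CPM against 0.730 and 0.556 CPM, overlapped between the genotypes. Among the basement membrane chains outside the vascular list, Lama2 had a log2 difference of -0.28 ± 0.14 (SE) and Lama1 one of 0.32 ± 0.28 (SE). Fibril-associated Col14a1 had the lowest value of all tested members, -0.83 ± 0.47 (SE), at 0.469 and 0.586 CPM against 0.913 and 0.973 CPM, and was not called. Col23a1, a transmembrane collagen, was at 2.88 and 2.08 CPM against 1.28 and 1.60 CPM, higher in both libraries without passing (log2 difference 0.77 ± 0.33 SE, edgeR adjusted p = 0.25).

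Endothelial markers summed to 348 and 376 CPM in heterozygous mice, below the 426 and 419 CPM of wild-type mice, with Cldn5 the 1 of 14 markers past the threshold. The mural sums, 253 and 275 CPM, and the fibroblast and meningeal sums, 57.5 and 75.0 CPM, overlapped those of wild-type mice. Of 15 oligodendrocyte markers, 9 were lower, with sums of 2578 and 2662 CPM, where 2.32% of all genes tested were lower. The astrocyte sums were 5721 and 5817 CPM, with 2 of 10 markers lower, and no microglia marker (sums of 314 and 348 CPM) or blood marker (8.98 and 18.0 CPM) was called. The part of these cells in the differences between genotypes was not tested.

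The last comparison set heterozygous P30 against wild-type P100 libraries, which differ in age and genotype together. Sparc, Nid1, Col9a3 and Col6a1 were higher in the heterozygous P30 libraries. Called members were thus 4 higher and 1 lower of 56, beside 2.44% and 2.66% of all genes. The tested members had a median log2 difference of 0.23 against 0.00 over all genes, and 27 were higher and 9 lower without overlap, beside 25.4% and 25% of all genes.

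Sparc, at 115 and 124 CPM in heterozygous P30 against 60.9 and 72.2 CPM in wild-type P100 libraries, was higher (log2 difference 0.85 ± 0.09 SE, edgeR adjusted p = 1.5e-04). Col9a3 showed the largest called fold, 2.73-fold, at 10.5 and 11.4 CPM against 4.13 and 3.87 CPM (log2 difference 1.45 ± 0.18 SE, edgeR adjusted p = 5.3e-04). Col6a1, the collagen VI chain that partners Col6a2, was at 20.0 and 14.8 CPM against 9.84 and 5.72 CPM (log2 difference 1.14 ± 0.23 SE, edgeR adjusted p = 0.011). In these 3 genes both heterozygous libraries lay above both P100 libraries.

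Nid1 was 1.67-fold higher in the heterozygous P30 libraries (log2 difference 0.74 ± 0.19 SE, edgeR adjusted p = 0.040). Nid1 lost its call in 7 of 17 alternative settings, among them DESeq2 (adjusted p = 0.14), limma-voom (adjusted p = 0.054) and the removal of any 1 wild-type P100 or heterozygous library (edgeR adjusted p up to 0.20). Col6a1 lost its call with counts summed over transcripts (edgeR adjusted p = 0.053), without the second wild-type P100 library (0.11) and without the first heterozygous library (0.082). Sparc and Col9a3 were called in each of the 17 settings. Without the second wild-type P100 library 2 members were higher in place of 4. Lamc1 and Serpinh1, each lower than wild-type P30 in both other comparisons, had log2 differences here of 0.16 ± 0.10 (SE, edgeR adjusted p = 0.39) and 0.50 ± 0.16 (SE, edgeR adjusted p = 0.092).

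Among the members below the threshold here, Col3a1 differed most, at 1.68 and 1.63 CPM in heterozygous P30 against 0.290 and 0.792 CPM in wild-type P100 libraries (log2 difference 1.65 ± 0.47 SE, edgeR adjusted p = 0.059). Lamb1 was at 13.3 and 13.1 CPM against 8.25 and 8.98 CPM (log2 difference 0.62 ± 0.17 SE, edgeR adjusted p = 0.051), and Col9a2 at 4.83 and 5.79 CPM against 3.26 and 2.46 CPM (0.88 ± 0.24 SE, edgeR adjusted p = 0.052). All 3 lay higher in both heterozygous libraries without reaching the threshold.

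Set side by side, the vascular basement membrane genes and the fibrillar collagens had medians of -0.62 and -0.75 for age, -0.32 and -0.13 for genotype, and 0.21 and 0.54 for heterozygous P30 against wild-type P100. The difference of the medians, vascular minus fibrillar, was 0.13 for age, -0.19 for genotype and -0.33 for the last comparison. Leaving out 1 library at a time moved the age value between -0.19 and 0.17. The median log2 level of the vascular list minus that of the fibrillar list had an SD of 0.0981 between libraries of a group. That SD describes levels and is not an error of these differences. The age value turned to -0.23 when genes had to reach 1 CPM in 2 libraries, and the last value turned to 0.0724, so that neither sign held against the filter. In summed CPM, which the abundant genes set, the vascular class was 261 and 254 CPM at wild-type P30 and 194 and 207 CPM at P100, and the fibrillar class 62.8 and 56.4 CPM against 48.3 and 55.0 CPM. Both classes were lower in both P100 libraries. Vascular over fibrillar sums were 4.16 and 4.49 in wild-type mice at P30, 4.03 and 3.76 in those at P100 and 4.14 and 4.32 in heterozygous mice. Per kilobase of transcript the ratios were 4.45 and 4.77, 4.48 and 4.20, and 4.50 and 4.58 in the same order, so that wild-type P30 and P100 overlapped.

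**Figure D4:**
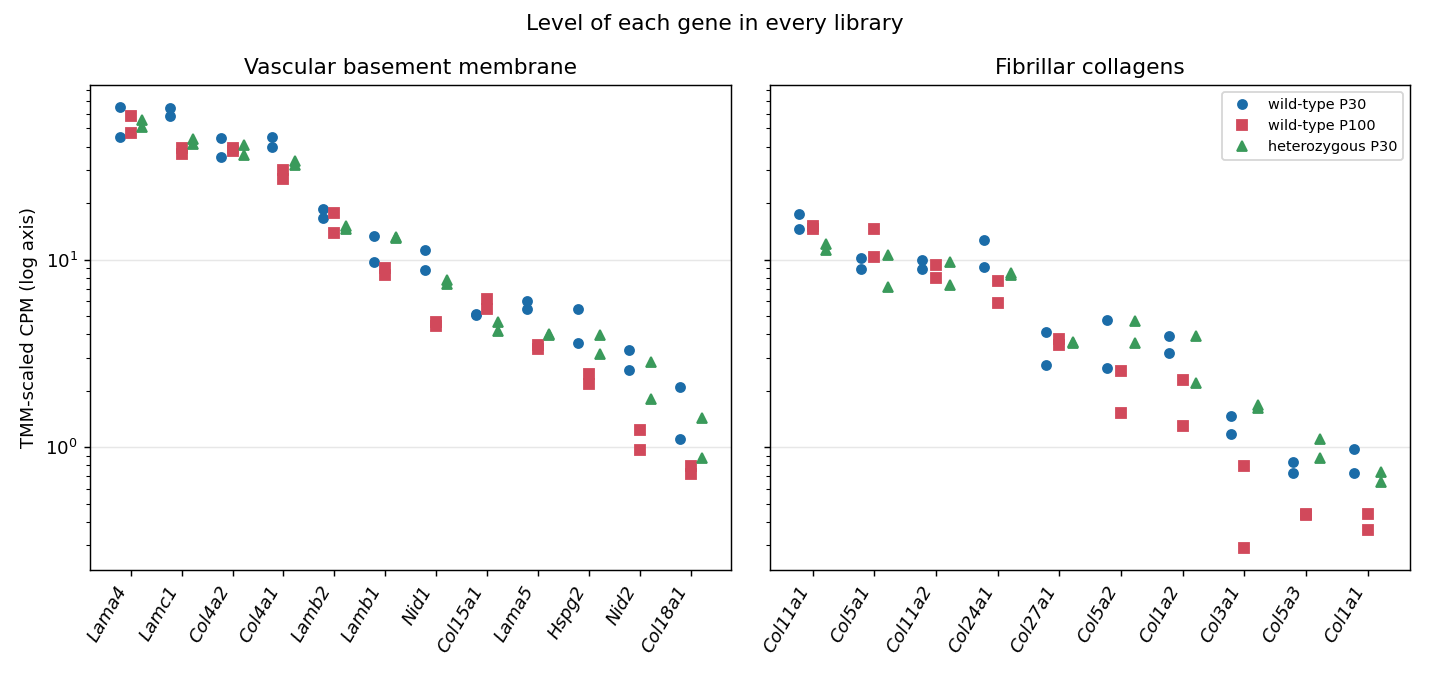
Level of each of the 12 vascular basement membrane genes (left) and the 10 fibrillar collagens (right) in TMM-scaled CPM on a log axis, with 1 point per library coloured by group. At the low end the wild-type P100 points of Nid2 (1.23 and 0.968 CPM) and of Col3a1 (0.290 and 0.792 CPM) lie below both wild-type P30 points, while those of Lama4, Col4a2 and Lamb2 overlap them.

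Partners of these genes outside the set were counted from 4 further lists. Among 20 tested genes of collagen processing, only Ppib, the cyclophilin that acts on procollagen with the prolyl 3-hydroxylase complex, was called for age (log2 difference -0.36 ± 0.10 SE, edgeR adjusted p = 0.038). Of 24 tested proteins associated with basement membranes, Fras1 was lower (-0.36 ± 0.10) and Smoc2, a Sparc relative, higher (1.13 ± 0.22). Among 24 tested receptors for collagen, laminin and their partners, 4 were lower with age and 1 higher, beside 4.54% and 3% of all genes. The integrin beta subunit Itgb1, common to most collagen and laminin receptors, was at 130 and 130 CPM at wild-type P30 and at 85.5 and 86.8 CPM at P100, lower in both libraries (-0.59 ± 0.07 SE, edgeR adjusted p = 2.9e-04). The endothelial Cd93 (-1.04 ± 0.13 SE) and the laminin receptor Mcam of mural and endothelial cells (-1.26 ± 0.16 SE) were lower by about the amounts of the nidogens, and Itga8 was higher (1.21 ± 0.18 SE). Of 18 tested genes of matrix turnover, the membrane-type metalloproteinase genes Mmp15 (-0.64 ± 0.14) and Mmp17 (-0.38 ± 0.09) and the plasminogen activator gene Plat were lower and Mmp16 (0.41 ± 0.08) was higher. Of these turnover genes DESeq2 called only Mmp17 and Mmp16. Among the receptors it called 3 lower with age and 1 higher.

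For genotype, 4 of the 24 receptors were lower and none higher, beside 2.32% and 0.903% of all genes. They were Mcam (-0.86 ± 0.15), the collagen IV and laminin receptor Gpr126 (-1.77 ± 0.33), Cd93 (-0.57 ± 0.12) and the syndecan Sdc4 (-0.40 ± 0.10), as log2 differences with SE. DESeq2, which gave an adjusted p for 16 of the 24 receptors, called only Mcam and Sdc4, while limma-voom called all 4. No gene of the lists for processing, associated proteins and turnover was called for genotype by edgeR. Of their 20, 24 and 18 tested genes, 2, 8 and 4 had an unadjusted edgeR p under 0.05, beside 2745 of all 15841. In these lists DESeq2 called Pxdn, lower, and limma-voom called none. In heterozygous P30 against wild-type P100 libraries, Ppib, Itgb1 and Itgb3 were higher and Pxdn, Gpr126 and Sdc4 lower. DESeq2 called each of these but Itgb3.

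The genes of the whole table whose log2 CPM followed a member most closely over the 6 libraries were listed as a description, without a test, since the 6 libraries share their groups. For Serpinh1 they were Ptprb, the vascular endothelial phosphatase (Pearson r = 0.993), Msantd1 (0.993) and Cd93 (0.990). For Sparc they were Rgmb, Gm2a and Pim2 (each 0.995), and for Col4a1 they were Glipr2 (0.997), Fam21 (0.995) and Scg5 (0.995).

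In the authors' deposited table for age, 5 of the 61 members had an adjusted p under 0.05, and all 5 were lower: Serpinh1 (log2 -1.06), Nid1 (-1.14), Sparc (-0.80), Lamc1 (-0.68) and Col4a1 (-0.57). Nid2, Plod1, P4ha1, Col25a1, Fn1 and Col6a4, called for age by edgeR here, did not pass that threshold there. In the authors' deposited table for genotype, Lamc1 was lower (-0.51) and Col6a4 (2.52) and Col9a3 (0.81) were higher at the same threshold. Serpinh1, called for genotype by edgeR here, did not pass it there.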

How the data were processed

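The files the authors deposited give unscaled counts of reads on 95533 Ensembl transcripts. Bowtie, HTSeq, DESeq 1.8.3 and mm10 are named in the submitters' processing notes, while settings, annotation release and use of strand are not given in the sources used here. Per the file headers, the authors' deposited comparison tables hold signal values (group means of scaled counts), log2 fold changes and p-values, and they were used only where named.

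Each gene was represented by its transcript with the highest total count, since the second transcript held a median of 0.882 times as many. The 9669 transcripts without a gene (13.96% of counts) were left out. After filterByExpr (minimum of 10 counts in 2 libraries, scaled to depth, and of 15 in total) and TMM scaling, counts were tested with edgeR 4.0.16 (R 4.3.3) by the quasi-likelihood test over all 6 libraries, with 3 groups and 3 residual degrees of freedom. P-values were adjusted by Benjamini-Hochberg over 15841 genes at 0.05. Each SE of an edgeR log2 difference was derived as the size of that difference over the square root of its F statistic. Levels are TMM-scaled CPM, with gene positions and lengths from GENCODE on mm10. The procedure was tested on simulated data.

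The members and lists were chosen with earlier results of these data known. Named were the called members, the vascular and fibrillar genes, the 3 highest per length of each class, and up to 3 called genes of each further list, beside others chosen after their values were seen. The values of 1 member are not reported here, though counts and sums include it. Alternatives covered scaling, filter, tool (DESeq2 1.42.0, limma 3.58.1), gene summary, replicate block, list membership and each library left out.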

Additional observations from a re-analysis of the deposited data

How the results depend on the processing

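Without a filter on low counts, 16 members were lower with age, 4 higher by genotype and 13 higher in heterozygous P30 than in wild-type P100 libraries (reported: 10, 2 and 4). The 2 members higher with age became 0 with DESeq2, which gave no adjusted p for Col6a4, and 1 with counts summed over transcripts. The 2 higher by genotype became 0 with DESeq2, which gave no adjusted p for Col6a4 and Col9a3. The 2 lower by genotype became 1 with upper-quartile scaling, library totals, the filter of 1 CPM, DESeq2, summed counts, and a fit of only the 4 libraries compared. Leaving out 1 library at a time gave 4 to 10 lower and 0 to 2 higher with age, 0 to 1 lower and 1 to 2 higher by genotype, and 2 to 6 higher in the last comparison, where the 1 lower member was 1 throughout. No member was higher with age without the first wild-type P30 or the first wild-type P100 library, and none was lower by genotype without the second wild-type P30 or the first heterozygous library.

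The age difference of vascular minus fibrillar medians was -0.23 under the filter of 1 CPM and -0.23 with only the 4 libraries compared, -0.19 without the first wild-type P30 and -0.10 without the first wild-type P100 library (range without 1 library -0.19 to 0.17). It was 0.59 with all basement membrane chains and 0.39 against the major fibrillar collagens. The genotype value was -0.073 with all basement membrane chains and ran from -0.31 to -0.040 without 1 library. The last comparison gave 0.072 under the filter of 1 CPM, -0.21 with summed counts, -0.085 with 4 libraries, -0.59 against the major fibrillar collagens and -0.33 to -0.088 without 1 library. The cause of these changes was not tested, other than that the filter leaves fewer genes. Of 21 called gene results, 7 were called in all 17 alternatives, and 16 of 147 uncalled ones gained a call in some alternative.

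The correlations of same-numbered deviations between groups over all tested genes were -0.0041, 0.10 and -0.00031. Whether the replicate numbers pair the libraries was not tested. With the replicate number as a block, 11 members were lower and 2 higher with age, 2 lower and 3 higher by genotype, and 1 lower and 6 higher in the last comparison. Genes under 1 CPM rest on few counts.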
